A study of Mus musculus with 8 samples.

Results

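The 10 genes described here set the strength of Wnt signaling at the cell surface or report on it. They are the receptors *Lgr4*, *Lgr5* and *Lgr6*, the secreted R-spondins *Rspo1*, *Rspo2*, *Rspo3* and *Rspo4*, the ubiquitin ligases *Rnf43* and *Znrf3*, and *Axin2*. They were chosen by their symbols in the NCBIM37 (mm9) mouse annotation, and all 10 were found among the 36536 genes counted in the neonatal mouse cochlea. In the canonical pathway, Wnt proteins bind Frizzled and Lrp receptors, beta-catenin is stabilized, and target genes are switched on together with factors of the Tcf/Lef family. RNF43 and ZNRF3 remove Frizzled receptors from the cell surface, and an R-spondin bound to an Lgr receptor takes these ligases away, so that the Wnt signal becomes stronger. *Axin2*, *Rnf43*, *Znrf3* and *Lgr5* are known Wnt targets themselves, and in the neonatal cochlea *Lgr5* is known as a marker of a subset of supporting cells that can give rise to hair cells.

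Cells of freshly dissected, untreated cochleas were sorted at postnatal day 1 (P1) and postnatal day 6 (P6) into GFP+ cells, of which the brightest were kept, and GFP- cells, with 2 RNA-seq libraries in each of the 4 groups. The same BAC transgene was carried by all 4 groups (B6;FVB-Tg(Lfng-EGFP)HM340Gsat/Mmucd). In this line the GFP marks Deiters', outer pillar, inner phalangeal and border cells, while inner pillar cells are not labeled. Each library pooled the cells of many cochleas. The lateral wall and stria vascularis were separated at P1 but only partly removed at P6, so the age of the GFP- cells and the amount of lateral wall in them cannot be told apart.

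The deposited values are raw counts per gene, with 17769024 to 67695039 gene counts in a library. A level is given in CPM, the counts of a gene for every 1000000 gene counts of its library. Genes are compared with each other in CPM per kilobase of exon, with the exons of all annotated transcripts merged. Differences are log2 fold changes with their standard error (SE) from edgeR's quasi-likelihood test, and "past the test" means a Benjamini-Hochberg adjusted p, taken over all genes tested, below 0.01. Folds above 4, which the study also asked for, were counted apart. The labels do not say that replicate libraries came from separate animals, so the p-values measure the spread between these libraries, which may be technical.

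Marker genes were used to describe the sorted cells. The supporting cell markers cannot test cell identity, since the study reports these genes as higher in the GFP+ cells of the same libraries. The cells were also sorted by the GFP of an *Lfng* transgene. All 7 supporting cell markers (among them *Sox2*, *Hes5*, *Fgfr3* and *Lfng* itself) were past the test and higher in GFP+ cells at both ages, with a median log2 fold change of 5.45 at P1 and 5.03 at P6. Of 8 hair cell markers, 5 were also higher in GFP+ cells at both ages, with medians of 2.75 and 3.41. Without P6 GFP- replicate 1, 6 of the 7 and 2 of the 8 were past the test at P6. Without P6 GFP- replicate 2, where edgeR called no gene, 7 of the 7 and 6 of the 8 had an unadjusted p below 0.05. Replicate libraries differed in their markers, and with 2 libraries in a group neither can be named the odd one. In P6 GFP+ replicate 2, the summed level of 8 mesenchyme and fibrocyte markers was 3617 CPM, against 1796 CPM in replicate 1, 450.0 and 505 CPM in P1 GFP+ cells and 14076 to 19623 CPM across the GFP- libraries. The summed supporting cell markers were at 5639 CPM in replicate 2 and 7628 CPM in replicate 1. P6 GFP+ replicates 1 and 2 had 763.6 and 2037 CPM of Schwann cell markers, and P6 GFP- cells 1278 and 1523 CPM. Endothelial markers were at 40.24 and 168.5 CPM, against 111.7 and 103.2 CPM. Between the P6 fractions these lists had median log2 fold changes of -0.14 and -0.02. Medians were -3.17 for mesenchyme, -3.11 for macrophage, -2.66 for melanocyte, -2.42 for cartilage and -1.02 for neuron markers. The part of these cells in the P6 differences was not tested. The P1 GFP- replicates 1 and 2 were at 135.8 and 456.3 CPM for the summed neuron markers and at 226.7 and 356.4 CPM for the supporting cell markers. The P1 GFP+ replicates were at 142.6 and 73.12 CPM for the Schwann cell markers. Calls of the members and of the further Wnt genes that changed without P6 GFP+ replicate 2 are given beside them below.

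The promoters of *Lgr6*, whose level in GFP+ cells rose between the ages, and of *Axin2*, the usual reporter of the pathway, are shown for reference. Their bases lie outside the counted exons, and a link between them and the levels below was not tested. RefSeq's promoter windows (GRCm38.p6) held 6 of the 10 genes, in 7 windows, and each was placed in NCBIM37 by its exact match. *Lgr5*, *Rspo2*, *Rspo3* and *Znrf3* had no entry. The 250 bases before the annotated start are given 5' to 3' on the strand of the gene, chr1:137001854-137002103 on the minus strand for *Lgr6* and chr11:108781413-108781662 on the plus strand for *Axin2*. Capitals would mark the Tcf/Lef letters CTTTGAA and CTTTGAT, which differ in the last base and were searched on both strands.
Lgr6: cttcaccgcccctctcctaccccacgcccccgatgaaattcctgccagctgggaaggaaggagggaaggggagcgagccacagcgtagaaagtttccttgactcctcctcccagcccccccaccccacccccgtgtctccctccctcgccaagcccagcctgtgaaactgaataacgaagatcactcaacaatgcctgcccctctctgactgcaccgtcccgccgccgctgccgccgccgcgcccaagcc
Axin2: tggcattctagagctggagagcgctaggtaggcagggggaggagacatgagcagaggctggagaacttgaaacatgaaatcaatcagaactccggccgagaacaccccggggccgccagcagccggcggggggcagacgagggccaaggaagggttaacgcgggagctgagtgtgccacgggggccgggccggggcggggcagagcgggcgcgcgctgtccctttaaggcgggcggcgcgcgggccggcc
No match was found in these or in the other 5 windows, while 2457 of all 32851 RefSeq windows of this length (7.48%) held one. The G and C content was 65.2% for *Lgr6* and 69.2% for *Axin2*. The absence of a match says only that these letters are not in these bases.

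*Lgr5* was the most abundant of the 10 transcripts per kilobase in the GFP+ cells of both ages, and a different gene led in the GFP- cells. In P1 GFP+ cells, *Lgr5* had a mean of 44.1 CPM per kilobase, followed by *Lgr4* (12.5), *Znrf3* (10.6), *Rnf43* (10.1), *Axin2* (7.80) and *Lgr6* (4.20). The libraries of *Znrf3* and *Rnf43* overlapped in this order, and the R-spondins were all below 1 CPM per kilobase. In P6 GFP+ cells, *Lgr5* (30.2 CPM per kilobase) and *Lgr6* (27.9) overlapped at the top, above *Rnf43* (12.8), *Lgr4* (10.5), *Znrf3* (8.08) and *Axin2* (6.63), with overlap between the last pair. The P1 GFP- cells were led by *Axin2* (32.6 CPM per kilobase), then *Rnf43* (17.3), *Lgr4* (15.3) and *Lgr6* (12.5), which overlapped with their neighbors, while *Znrf3* (5.85) and *Lgr5* (3.86) were lower. In P6 GFP- cells the order began with *Lgr4* (24.0 CPM per kilobase), *Axin2* (16.7), *Rnf43* (9.59) and *Lgr6* (8.82), with no overlap between them. Here *Rspo3* (5.10) and *Znrf3* (4.66) overlapped, and *Lgr5* (3.12) came next.

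**Figure D1:**
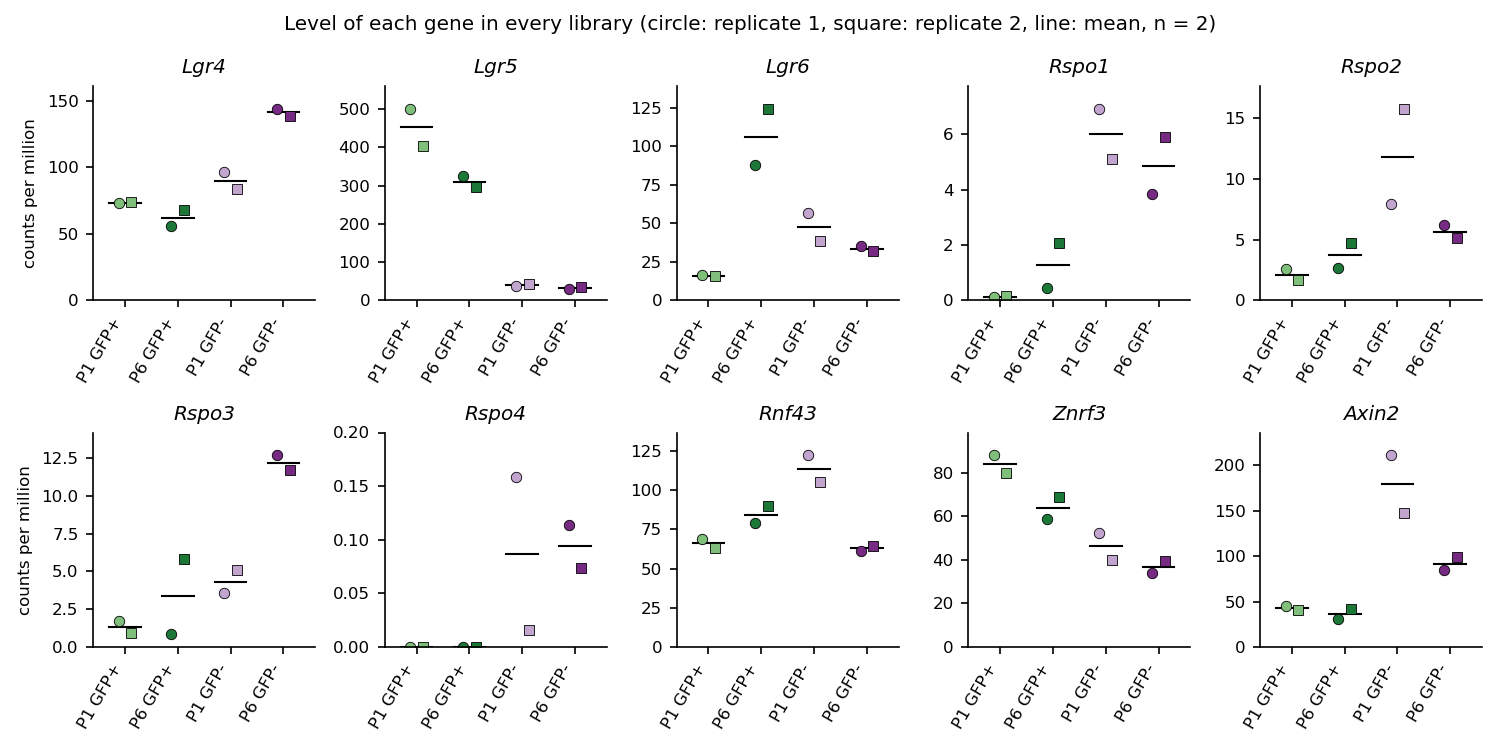
Level of each of the 10 genes in CPM (linear axes from 0, a separate scale for each gene) in the 8 libraries, with circles for replicate 1, squares for replicate 2 and a line at the mean of the 2 libraries. *Lgr5* lies at 296 to 500 CPM in all 4 GFP+ libraries and at 29.4 to 41.6 CPM in the GFP- libraries, *Lgr6* changes from 15.8 and 16.2 CPM to 87.7 and 124 CPM in GFP+ cells, and *Axin2* is highest in the P1 GFP- libraries.

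Between GFP+ and GFP- cells at P1, 7 of the 9 genes tested were past the test, where 37.3% of all 18682 genes tested were. *Lgr5* and *Znrf3* were higher in GFP+ cells (2 of 9, with 16.6% of all genes), and *Lgr6*, *Rspo1*, *Rspo2*, *Rnf43* and *Axin2* were lower (5 of 9, with 20.7% of all genes). The median log2 fold change of the 9 genes was -1.47, against 0.007 for all genes tested. *Lgr5*, *Rspo1* and *Rspo2* also had folds above 4, a criterion met by 17.8% of all genes. Without either of the P1 GFP+ libraries, *Lgr5*, *Rspo1* and *Axin2* remained and the count was 3. *Rspo4* had too few counts and was removed by the filter in every comparison. In libraries of sorted populations, fewer cells of a type and less RNA per cell cannot be told apart, which holds for all differences given here.

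At P6, 4 of 9 genes were past the test between the fractions, against 12.9% of the 18294 genes tested. *Lgr5* and *Lgr6* were higher in GFP+ cells (7.72% of all genes were higher), *Lgr4* and *Axin2* were lower (5.19% of all genes were lower), and only *Lgr5* of these had a fold above 4 (7.98% of all genes). The median log2 fold change was -0.60, against -0.017 for all genes. This count rested on single libraries: it was 8 without either of the P6 GFP+ libraries, 1 (*Lgr5*) without P6 GFP- replicate 1 and 0 without P6 GFP- replicate 2. In that last fit edgeR called 0 of all genes, while 5144 genes, 5 of the 9 members among them, had an unadjusted p below 0.05. When a library is left out, the library that remains alone in its group is assumed to vary like the other group.

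Between the ages, fewer genes differed. In GFP+ cells, *Lgr6* alone of the 9 genes was past the test, with a fold above 4, where 4.81% of the 17213 genes tested were past the test (2.86% rose and 1.95% fell) and 2.56% also had such a fold. The count was 6 without P6 GFP+ replicate 1 and 3 without P6 GFP+ replicate 2, and it stayed at 1 without either P1 GFP+ library. In GFP- cells, *Lgr4* and *Rspo3* rose and *Rnf43* fell (3 of 9 genes, against 7.38% of the 18920 genes tested, of which 5.04% rose and 2.34% fell). Each changed by less than 4 fold, and 1.85% of all genes were past the test with a larger fold. That count was 0 in edgeR without either of the P6 GFP- libraries, with 4 members at an unadjusted p below 0.05 each time, and 4 or 5 without P1 GFP- replicate 1 or 2. The median log2 fold change of the 9 genes was 0.44 in GFP+ cells and -0.14 in GFP- cells, against -0.002 and -0.022 for all genes. The change of the GFP+ to GFP- ratio itself between the ages was past the test for *Lgr6* alone of the 9 genes, where it became higher. This was tested as the interaction term of a model of all 8 libraries, which 1.93% of the 19233 genes passed (0.946% with a higher and 0.988% with a lower ratio at P6, and 1.26% with a change above 4 fold). In edgeR 5 of the 9 genes had an unadjusted p below 0.05 for this term, and DESeq2 called 4. The ratio of *Lgr4* changed by -1.03 (95% interval -1.45 to -0.60) and that of *Rnf43* by 1.08 (95% interval 0.67 to 1.49). Those of *Rspo1* and *Rspo2*, which had few counts, changed by 3.51 (95% interval 1.45 to 5.58) and 1.74 (95% interval 0.39 to 3.08). None of these changes was past the test in edgeR. The 4 comparisons of groups share libraries with each other and are not independent.

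**Figure D2:**
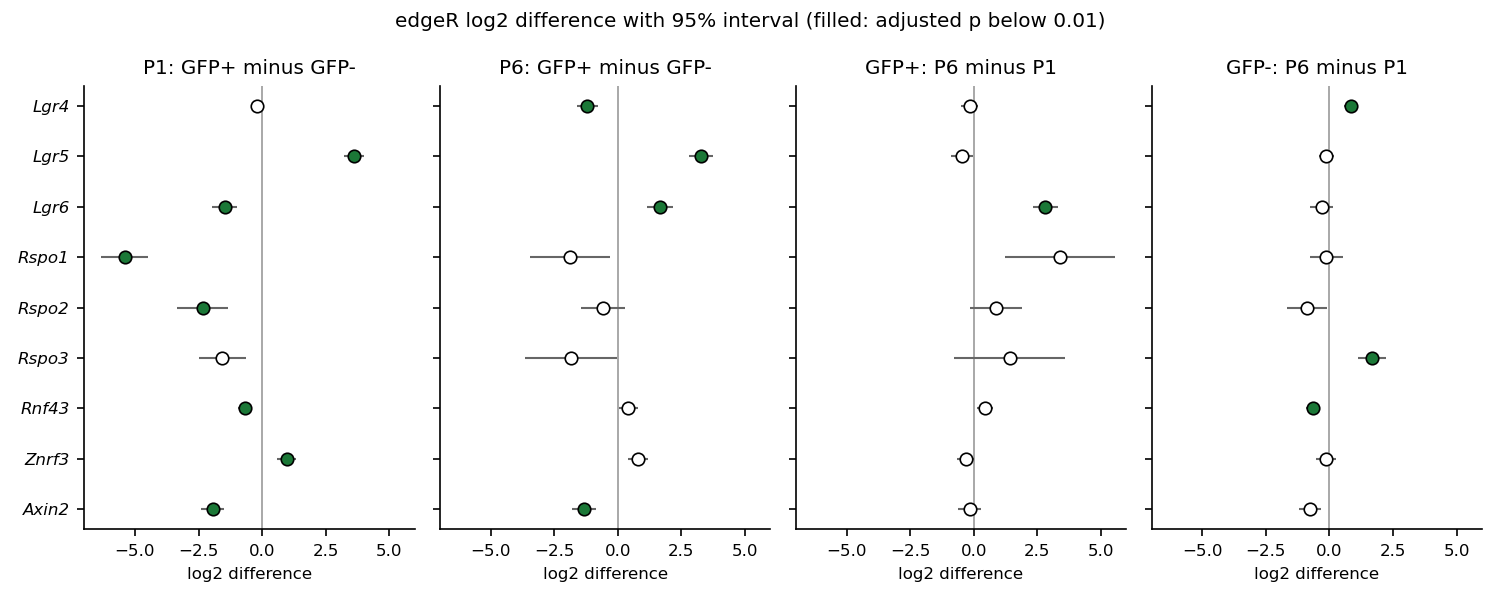
The log2 fold change of the 9 genes tested (x axis) in the 4 comparisons of groups, with the 95% interval from edgeR and filled points for an adjusted p below 0.01. *Lgr5* lies at 3.62 and 3.27 between the fractions and *Lgr6* changes side, from -1.47 at P1 to 1.65 at P6, while the R-spondins have the widest intervals.

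The 3 Lgr genes encode receptors with leucine-rich repeats that bind R-spondins. *Lgr5* (ENSMUSG00000020140, chr10:114887367-115024836, minus strand) was at 500 and 404 CPM in P1 GFP+ cells, against 37.6 and 41.6 CPM in P1 GFP- cells. At P6 it was at 325 and 296 CPM in GFP+ cells and at 29.4 and 34.7 CPM in GFP- cells. All 4 GFP+ libraries were therefore above all 4 GFP- libraries, by about an order of magnitude. The log2 fold change was 3.62 (SE 0.16, edgeR adjusted p = 2.37e-05) at P1 and 3.27 (SE 0.19, adjusted p = 0.000762) at P6. At P1 it was past the test in every one of the 11 alternative settings tried. Without P6 GFP- replicate 2 the P6 value was 3.38 with an adjusted p of 0.0139.

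The level of *Lgr5* in GFP+ cells was lower at P6 than at P1 in both libraries. The log2 fold change of -0.45 (SE 0.18, 95% interval -0.90 to -0.01, adjusted p = 0.127) was not past the test. Without P6 GFP+ replicate 1 it was -0.55. Over the 12 alternative settings it lay between -0.62 and -0.26 and was past the test in 1. In GFP- cells it was -0.12 (SE 0.13, 95% interval -0.41 to 0.18), and the GFP+ to GFP- ratio differed between the ages by -0.36 (95% interval -0.88 to 0.17).

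*Lgr6* (ENSMUSG00000042793, chr1:136882925-137001853, minus strand) had the opposite order of fractions at the 2 ages. In P1 libraries it was at 16.2 and 15.8 CPM in GFP+ cells and at 57.0 and 38.3 CPM in GFP- cells. In P6 libraries it was at 87.7 and 124 CPM in GFP+ cells and at 35.0 and 32.1 CPM in GFP- cells. The fractions did not overlap at either age, and the GFP+ cells were the low group at P1 and the high group at P6. Relative to GFP- cells the log2 fold change was -1.47 (SE 0.20, adjusted p = 0.00171) at P1 and 1.65 (SE 0.21, adjusted p = 0.00438) at P6, and the difference between them was 3.10 (SE 0.31, adjusted p = 0.00195). Within GFP+ cells *Lgr6* rose by 2.82 (SE 0.19, 95% interval 2.33 to 3.30, adjusted p = 0.00273), or 7.04 fold. Within GFP- cells the change was -0.31 (SE 0.20, 95% interval -0.78 to 0.15, adjusted p = 0.305).

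The rise of *Lgr6* in GFP+ cells was past the test in all 12 alternative settings, with log2 fold changes from 2.58 to 3.02. The differences between the fractions kept their direction but not always their call. At P1 the adjusted p was 0.0132 without P1 GFP+ replicate 1 and 0.0149 without P1 GFP+ replicate 2, and at P6 it was 0.0253 without P6 GFP- replicate 1 and 0.0437 without P6 GFP- replicate 2. The change in the ratio had adjusted p-values of 0.0192 and 0.0181 without P1 GFP+ replicate 1 or 2, and of 0.0222 and 0.0244 without P6 GFP- replicate 1 or 2. Its size stayed between 2.83 and 3.45 over the 14 alternatives.

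*Lgr4* (ENSMUSG00000050199, chr2:109757804-109854414, plus strand), the Lgr gene most widely expressed in other tissues, was at 73.2 and 73.7 CPM in P1 GFP+ cells and at 96.3 and 83.6 CPM in P1 GFP- cells. It was at 55.8 and 67.7 CPM in P6 GFP+ cells and at 144 and 139 CPM in P6 GFP- cells. The P6 GFP- libraries were the highest and the P6 GFP+ libraries the lowest of the 8. *Lgr4* was lower in GFP+ cells at P6, by a log2 fold change of -1.20 (SE 0.16, adjusted p = 0.00563), and at P1 the value of -0.19 (95% interval -0.44 to 0.06, adjusted p = 0.169) was not past the test. It rose with age in GFP- cells by 0.84 (SE 0.12, adjusted p = 0.00458), while the GFP+ cells gave -0.16 (95% interval -0.48 to 0.16, adjusted p = 0.401). The change of the ratio between the ages was -1.03 (SE 0.18) with an adjusted p of 0.0175, which became 0.00777 or 0.00377 without P6 GFP+ replicate 1 or 2. Without P6 GFP- replicate 1 or 2 the P6 difference had an adjusted p of 0.0483 or 0.0453, and the rise in GFP- cells one of 0.0343 or 0.0187.

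The make-up of the Lgr family shifted more than its sum. Summed per kilobase, the 3 transcripts were at 60.7 ± 6.59 CPM (SD, n = 2) in P1 GFP+ cells and at 68.6 ± 6.28 CPM (SD, n = 2) in P6 GFP+ cells, against 31.7 ± 4.72 CPM and 36.0 ± 0.784 CPM in the GFP- cells of P1 and P6. In P1 GFP+ cells *Lgr5* held 72.4% ± 2.98 of this sum and *Lgr6* 6.95% ± 0.638 (SD, n = 2). In P6 GFP+ cells *Lgr5* held 44.4% ± 6.89 and *Lgr6* 40.3% ± 6.22. Per kilobase, *Lgr5* exceeded *Lgr6* by 11.5 and 9.50 times in the P1 GFP+ libraries, and the ratio was 1.37 and 0.884 in the P6 GFP+ libraries. *Lgr4* made up the largest share in GFP- cells, with 48.4% ± 2.40 (P1) and 66.8% ± 0.264 (P6). These shares are a description and were not tested. They rest on merged exon lengths of 10264 bases for *Lgr5* and 3804 bases for *Lgr6*, which may include exons not used in these cells. Without division by length, the means in P6 GFP+ cells were 310.5 CPM for *Lgr5* and 106 CPM for *Lgr6*.

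**Figure D3:**
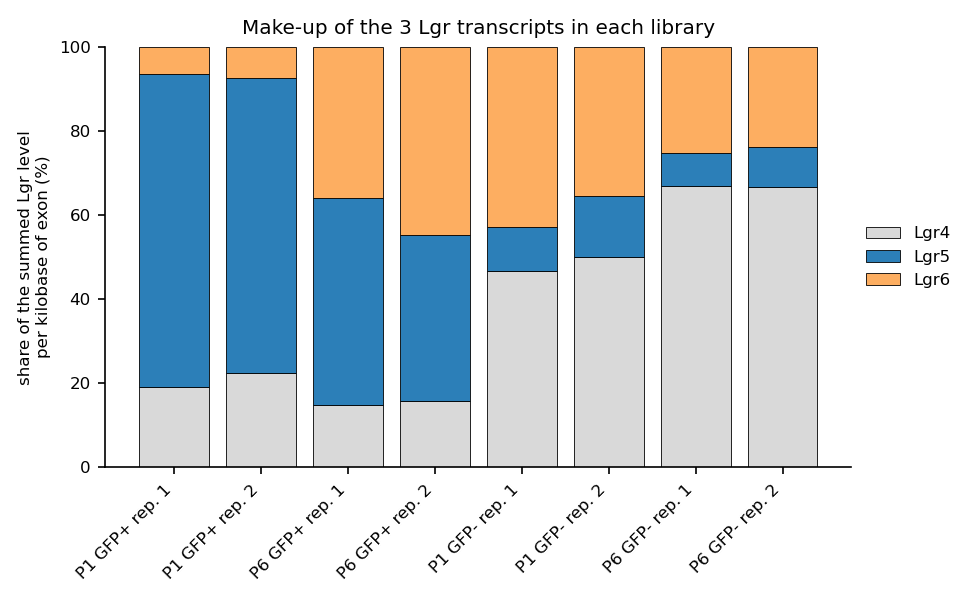
Share of *Lgr4*, *Lgr5* and *Lgr6* (y axis, percent of their summed CPM per kilobase of exon, from 0 to 100) in each of the 8 libraries. *Lgr5* fills most of the P1 GFP+ bars (mean 72.4%), *Lgr5* and *Lgr6* hold 44.4% and 40.3% in the P6 GFP+ bars, and *Lgr4* is the largest share in all GFP- bars.

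The 4 R-spondins are the secreted ligands of the Lgr receptors, and they were the lowest members in the GFP+ cells of both ages. In P6 GFP- cells *Rspo3* (5.10 CPM per kilobase) lay above *Lgr5* (3.12). Of the 3 that could be tested, *Rspo1* and *Rspo2* were lower in GFP+ cells at P1, and no difference between the fractions was past the test for *Rspo3* or at P6. Summed per kilobase, they were at 1.26 ± 0.419 CPM in P1 GFP+ cells and 8.50 ± 1.42 CPM in P1 GFP- cells (SD, n = 2). At P6 the sum was 1.4 and 4.94 CPM in the GFP+ libraries and 9.35 ± 0.235 CPM in GFP- cells. In the GFP- cells *Rspo1* and *Rspo2* held 37.7% and 40.7% of the sum at P1, and *Rspo3* held 54.7% at P6.

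*Rspo1* (ENSMUSG00000028871, chr4:124663674-124686343, plus strand) had only 5 and 4 counts in the P1 GFP+ libraries (0.109 and 0.161 CPM). It had 262 and 323 counts in the P1 GFP- libraries (6.91 and 5.12 CPM). Its level was 0.450 and 2.08 CPM in P6 GFP+ cells, from 8 and 62 counts, and 3.83 and 5.89 CPM in P6 GFP- cells. The fractions did not overlap at either age. At P1 it was lower in GFP+ cells by a log2 fold change of -5.41 (SE 0.38, adjusted p = 0.000113), and this was past the test in all 11 alternative settings, with values from -5.62 to -4.60. At P6 the value was -1.88 (SE 0.63, adjusted p = 0.0693), and in GFP+ cells the change with age was 3.38 (SE 0.85, adjusted p = 0.0486). Neither was past the test. Without P6 GFP+ replicate 2 the P6 value was -3.40 (adjusted p = 2.02e-05), and without P6 GFP+ replicate 1 it was -1.20 (adjusted p = 0.00982). The change with age was 1.90 (adjusted p = 0.102) without P6 GFP+ replicate 2 and 4.04 (adjusted p = 2.4e-06) without replicate 1, so its size and its call rested on which of these libraries was used.

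*Rspo2* (ENSMUSG00000051920, chr15:42852357-43002364, minus strand) was at 2.60 and 1.65 CPM in P1 GFP+ cells and at 7.89 and 15.7 CPM in P1 GFP- cells. It was at 2.70 and 4.72 CPM in P6 GFP+ cells and at 6.16 and 5.10 CPM in P6 GFP- cells. The P1 GFP- libraries differed from each other by 1.99 times. At P1 *Rspo2* was lower in GFP+ cells by -2.34 (SE 0.41, adjusted p = 0.00439), a call that was lost without P1 GFP+ replicate 1 (adjusted p = 0.0141) or replicate 2 (0.0280). At P6 the log2 fold change was -0.60 (95% interval -1.46 to 0.26, adjusted p = 0.236), and without P6 GFP+ replicate 2 it was -1.04 (adjusted p = 0.00965). The change with age in GFP+ cells came to be past the test without P6 GFP+ replicate 1 (1.16, adjusted p = 0.00183).

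*Rspo3* (ENSMUSG00000019880, chr10:29172915-29255673, minus strand) was at 1.72 and 0.924 CPM in P1 GFP+ cells and at 3.56 and 5.09 CPM in P1 GFP- cells. In P6 GFP+ cells it had 15 counts (0.844 CPM) in replicate 1 and 175 counts (5.86 CPM) in replicate 2, and in P6 GFP- cells it was at 12.7 and 11.7 CPM. The P6 GFP- libraries were the highest of the 8. *Rspo3* rose with age in GFP- cells by a log2 fold change of 1.68 (SE 0.23, adjusted p = 0.00402). That call was lost without P6 GFP- replicate 1 (adjusted p = 0.0441) or replicate 2 (0.0259), and with all 8 libraries in the fit (log2 fold change 1.71, adjusted p = 0.120). Between the fractions the values were -1.56 (SE 0.38, adjusted p = 0.0155) at P1 and -1.84 (SE 0.73, adjusted p = 0.108) at P6. The P1 value lay between -2.14 and -1.19 over the 11 alternative settings. It was past the test in 4 of them, with DESeq2 among these (DESeq2 adjusted p = 0.00254). Without P6 GFP+ replicate 2 the P6 value was -3.83 (adjusted p = 5.54e-08), and the change with age in GFP+ cells turned from 1.41 (adjusted p = 0.283) to -0.59 (adjusted p = 0.337). Without P6 GFP+ replicate 1 these values were -1.04 (adjusted p = 0.001) and 2.12 (adjusted p = 4.65e-06).

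*Rspo4* (ENSMUSG00000032852, chr2:151668663-151700404, plus strand) had 0 counts in all 4 GFP+ libraries, 6 and 1 counts in P1 GFP- cells and 7 and 5 counts in P6 GFP- cells. A count of 0 allows a level of up to 0.0655 to 0.169 CPM in a GFP+ library (3 counts). The GFP- libraries were at 0.0158 to 0.158 CPM, a range that overlaps these limits. The filter removed *Rspo4*, so a difference was not tested. Such limits cover counting error only, since reads of amplified libraries without molecular tags are not independent molecules.

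The R-spondins were also the members that differed most between the P6 GFP+ libraries. Replicate 2 exceeded replicate 1 by a log2 ratio of 2.79 for *Rspo3*, 2.21 for *Rspo1* and 0.81 for *Rspo2*. For the other members the log2 ratio lay between -0.13 (*Lgr5*) and 0.50 (*Lgr6*). Summed markers differed between the same libraries, with log2 ratios of 1.01 for the mesenchyme list, 1.42 for 4 Schwann cell markers and 1.20 for 4 macrophage markers. The ratio was 2.07 for 4 endothelial markers, 1.27 for melanocyte and 0.76 for cartilage markers. It was 0.28 for hair cell markers, 0.25 for neuron markers and -0.44 for the supporting cell list. All mesenchyme markers but *Lum* were higher in replicate 2, by unlike amounts. *Pou3f4* and *Tbx18* were at 22.4 and 20.4 CPM in replicate 1 and at 111 and 111 CPM in replicate 2. *Col1a2* was at 470.8 and 1706 CPM, *Dcn* at 254.8 and 267.5 CPM and *Lum* at 764.8 and 655.8 CPM. The part of the marked cell types in the R-spondin values was not tested. The P1 GFP+ libraries differed by log2 ratios of 0.56 for *Rspo1*, -0.66 for *Rspo2* and -0.90 for *Rspo3*.

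**Figure D4:**
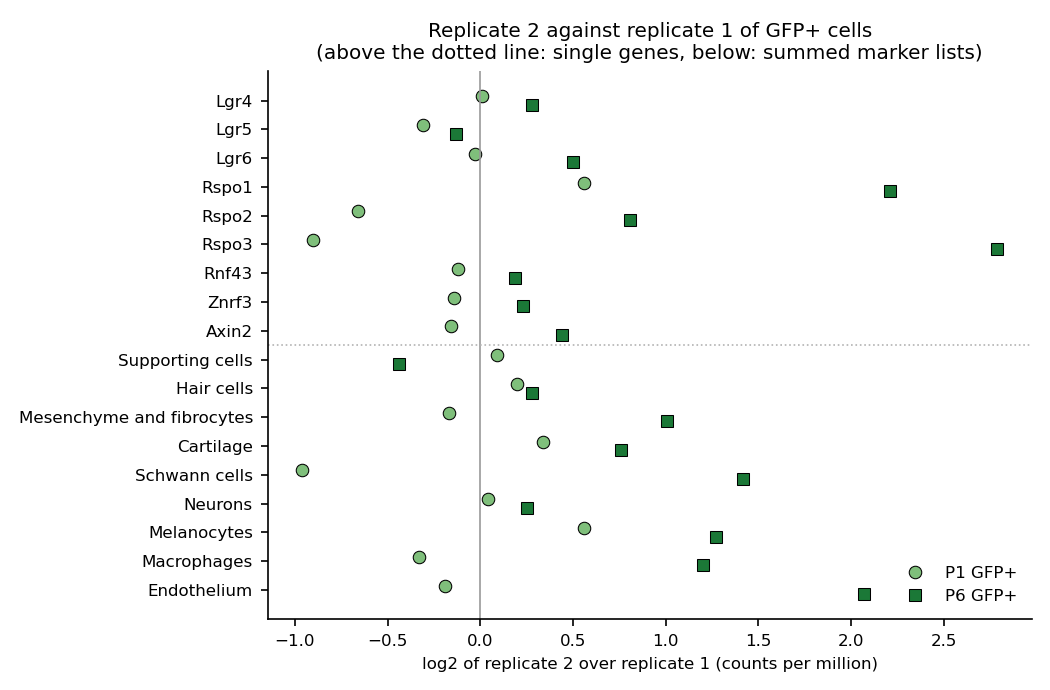
The log2 ratio of replicate 2 to replicate 1 in CPM (x axis) within P1 GFP+ cells (circles) and P6 GFP+ cells (squares), for 9 of the 10 genes above the dotted line and for summed marker lists below it. In P6 GFP+ cells *Rspo1* and *Rspo3* lie at 2.21 and 2.79, beyond every summed list, and the supporting cell list lies at -0.44.

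*Rnf43* and *Znrf3* encode the transmembrane ubiquitin ligases that lower the amount of Frizzled at the cell surface. *Rnf43* (ENSMUSG00000034177, chr11:87476224-87549041, plus strand) was at 68.8 and 63.2 CPM in P1 GFP+ cells and at 122 and 105 CPM in P1 GFP- cells. It was at 78.8 and 89.7 CPM in P6 GFP+ cells and at 61.5 and 64.3 CPM in P6 GFP- cells. As for *Lgr6*, the fractions did not overlap and their order was reversed between the ages, with smaller differences. At P1 *Rnf43* was lower in GFP+ cells by a log2 fold change of -0.68 (SE 0.12, adjusted p = 0.00394), and at P6 the value of 0.41 (SE 0.15, adjusted p = 0.0804) was not past the test. The change of the ratio between the ages was 1.08 (SE 0.18, adjusted p = 0.0125). *Rnf43* fell by 0.66 on the log2 scale in GFP- cells (SE 0.11, adjusted p = 0.0098), and the change in GFP+ cells was 0.44 (SE 0.12, adjusted p = 0.0636).

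The calls on *Rnf43* lay close to the threshold. The fall in GFP- cells had an adjusted p of 0.0703 or 0.0583 without P6 GFP- replicate 1 or 2, 0.0105 with all libraries thinned to the smallest and 0.0164 with all 8 libraries in the fit. The P1 difference had one of 0.0189 or 0.0404 without P1 GFP+ replicate 1 or 2. The P6 difference had one of 0.00777 without P6 GFP+ replicate 1, and the change in GFP+ cells had one of 0.000508 or 0.00319 without P6 GFP+ replicate 1 or 2. The change of the ratio had one of 0.00299 or 0.00669 without P6 GFP+ replicate 1 or 2, 0.00979 after thinning and 4.34e-05 in DESeq2.

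*Znrf3* (ENSMUSG00000041961, chr11:5176327-5344850, minus strand) was at 88.0 and 80.0 CPM in P1 GFP+ cells and at 52.4 and 40.0 CPM in P1 GFP- cells. It was at 58.8 and 68.8 CPM in P6 GFP+ cells and at 33.9 and 39.6 CPM in P6 GFP- cells. Unlike *Rnf43*, it lay above the GFP- libraries in every GFP+ library of both ages. The log2 fold change was 0.97 (SE 0.15, adjusted p = 0.00298) at P1, and 0.79 (SE 0.16, adjusted p = 0.0172) at P6, which was not past the test. Without P1 GFP+ replicate 1 or 2 the P1 value had an adjusted p of 0.0233 or 0.0112, and without P6 GFP+ replicate 1 or 2 the P6 value had one of 0.0001 or 0.00112. Neither age change was past the test, with -0.31 (95% interval -0.64 to 0.03) in GFP+ cells and -0.14 (95% interval -0.52 to 0.24) in GFP- cells. The GFP+ value was -0.39 (adjusted p = 0.00321) without P6 GFP+ replicate 2.

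Per kilobase, *Rnf43* and *Znrf3* were near equal in P1 GFP+ cells, with ratios of 0.941 and 0.951. The ratio was 1.61 and 1.57 in the P6 GFP+ libraries, 2.80 and 3.17 among P1 GFP- cells and 2.18 and 1.95 among P6 GFP- cells. Their sum was 20.7 ± 1.32 and 20.9 ± 2.08 CPM per kilobase in the GFP+ cells of P1 and P6, and 23.2 ± 2.91 and 14.2 ± 0.822 CPM per kilobase in the GFP- cells (SD, n = 2).

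*Axin2* (ENSMUSG00000000142, chr11:108781663-108812097, plus strand), a scaffold of the beta-catenin destruction complex and a widely used readout of Wnt signaling, was at 45.4 and 40.5 CPM in P1 GFP+ cells and at 211 and 148 CPM in P1 GFP- cells. It was at 31.0 and 42.0 CPM in P6 GFP+ cells and at 84.3 and 99.4 CPM in P6 GFP- cells. Every GFP+ library was below every GFP- library. The log2 fold change between the fractions was -1.95 (SE 0.19, adjusted p = 0.000413) at P1 and -1.34 (SE 0.20, adjusted p = 0.00671) at P6. At P1 it was past the test in all 11 alternative settings. At P6 the adjusted p was 0.0315 or 0.0538 without P6 GFP- replicate 1 or 2 and 0.0102 when libraries were scaled by their totals only. In GFP- cells the change with age was -0.78 (SE 0.18, adjusted p = 0.0269), and -1.03 without P1 GFP- replicate 2. Over the 12 alternative settings this change lay between -1.03 and -0.51 and was past the test in 4. In GFP+ cells it was -0.15 (95% interval -0.60 to 0.30, adjusted p = 0.577). Of the *Axin2* exon bases, 209 (3.80%) overlap exons of *Gm11670* on the opposite strand, and the library kit does not mark strand, so reads of these bases cannot be told apart. *Gm11670* itself had 3 to 108 counts in a library. No other member shares exon bases with another annotated gene.

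Other genes of the pathway were read from 2 lists. The first held 26 genes of the receptor complex and the beta-catenin machinery, all of which were tested. At P1, 4 were higher and 5 lower in GFP+ cells, with a median log2 fold change of -0.03. Of all genes tested 16.6% were higher and 20.7% lower, shares close to those of the list. The largest changes were those of the corepressor *Tle2* (-2.51, SE 0.11, adjusted p = 2.35e-05), *Apc2*, a relative of the destruction complex gene *Apc* (-2.09, SE 0.13, adjusted p = 7.89e-05) and the transcription factor *Tcf7l2* (1.79, SE 0.11, adjusted p = 6.83e-05). At P6 the median was -0.23 and edgeR called none of the 26, with 9 at an unadjusted p below 0.05 and 5 called by DESeq2. Without P6 GFP+ replicate 1 it called 6 (1 higher and 5 lower), and without replicate 2 it called 9 (1 higher and 8 lower).

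In GFP+ cells 1 of the 26 genes rose and 2 fell with age, where 2.86% of all genes rose and 1.95% fell, and the median was -0.30. *Tcf7l2* was at 144 and 150 CPM in P1 GFP+ cells and at 40.5 and 37.6 CPM in P6 GFP+ cells, and fell by 1.82 on the log2 scale (SE 0.12, adjusted p = 0.00273). The related factor *Tcf7l1* fell by 1.72 (SE 0.12, adjusted p = 0.0028), from 130 and 144 CPM to 36.5 and 41.6 CPM. *Wls*, which carries Wnt proteins to the cell surface, rose by 1.29 (SE 0.14, adjusted p = 0.00668), from 129 and 114 CPM to 285 and 273 CPM. All 3 were past the test without either P6 GFP+ library, where 4 of the 26 rose and 8 fell (without replicate 1) or 5 rose and 13 fell (without replicate 2). Their calls were lost without P1 GFP+ replicate 2 (adjusted p of 0.0127 for *Tcf7l2*, 0.0155 for *Tcf7l1* and 0.0855 for *Wls*), and that of *Wls* also without P1 GFP+ replicate 1 (0.0154). In GFP- cells edgeR called none of the 26 with age (median -0.07), with 10 at an unadjusted p below 0.05 and 4 called by DESeq2. For a change of the ratio between the ages edgeR called 1 gene of the list, *Tcf7l2* (-1.42, SE 0.19, adjusted p = 0.00526), where 0.988% of all genes had a lower ratio at P6, while 11 of the 26 had an unadjusted p below 0.05 and DESeq2 called 4. The *Tcf7l2* call was kept without either P6 GFP+ library and lost without any 1 of the other 6 libraries (adjusted p from 0.0121 to 0.0446).

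The second list held 15 further genes known as Wnt targets in other tissues, all tested, and at P1 most of them were lower in GFP+ cells. At that age 10 of the 15 were lower and 2 higher (20.7% and 16.6% of all genes), with a median of -1.24. At P6, 7 were lower and 1 higher (5.19% and 7.72% of all genes), with a median of -1.81. *Lef1*, a Tcf/Lef factor, was at 3.29 and 3.33 CPM in P1 GFP+ cells and at 144 and 128 CPM in P1 GFP- cells, a log2 fold change of -5.25 (SE 0.12, adjusted p = 9.99e-06). The Wnt inhibitors *Apcdd1* (-5.07, SE 0.13, adjusted p = 9.99e-06) and *Nkd2* (-4.84, SE 0.22, adjusted p = 2.82e-05) followed. The largest differences past the test at P6 were those of *Apcdd1* (-2.91, SE 0.49, adjusted p = 0.00945), the growth regulator *Myc* (-2.23, SE 0.25, adjusted p = 0.00329) and the receptor gene *Tnfrsf19* (-2.19, SE 0.31, adjusted p = 0.0062). *Apcdd1* was at 28.8 and 81.9 CPM in the P6 GFP+ libraries, and its P6 value was -3.82 without replicate 2 and -2.31 without replicate 1. The P6 counts were 11 lower and 1 higher without P6 GFP+ replicate 2, and 10 lower and 2 higher without replicate 1. Without either P6 GFP- library edgeR called none of the 15, with 11 at an unadjusted p below 0.05 each time. The mesenchyme markers were also lower in GFP+ cells (past the test for 7 of 8 at P1, and for 4 of 8 at P6, or 7 of 8 without either P6 GFP+ library), and their part in these differences was not tested.

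With age, 1 of the 15 targets rose in GFP+ cells (2.86% of all genes rose). *Notum*, a secreted enzyme that inactivates Wnt proteins, was at 6.96 and 5.87 CPM in P1 GFP+ cells and at 25.7 and 33.4 CPM in P6 GFP+ cells, a rise of 2.29 (SE 0.21, adjusted p = 0.00428). Its levels in GFP- cells were 81.5 and 59.0 CPM at P1 and 96.2 and 116 CPM at P6. The rise was 2.11 without P6 GFP+ replicate 2 and 2.42 without replicate 1, and its call was lost without P1 GFP+ replicate 2 (adjusted p = 0.0247). Over the same ages the median log2 fold change in GFP+ cells was 2.51 for the mesenchyme markers, 3.83 for Schwann cell, 2.65 for macrophage and 2.40 for endothelial markers, of which edgeR called 2 of 8, 0 of 4, 1 of 4 and 0 of 4 (all of them had an unadjusted p below 0.05, and DESeq2 called 6, 4, 4 and 4). Their part in the rise of *Notum* was not tested. The median of the target list was 0.31, and -0.18 without P6 GFP+ replicate 2, where 5 rose and 6 fell. When P6 GFP+ replicate 1 was left out, 7 rose and 3 fell. In GFP- cells 3 rose and 3 fell (5.04% and 2.34% of all genes, median 0.06), with *Sp5* falling by 1.51 (SE 0.23, adjusted p = 0.00656) and *Apcdd1* and *Bambi* rising by 1.21 (SE 0.13, adjusted p = 0.00166) and 1.03 (SE 0.11, adjusted p = 0.00155). EdgeR called none of the 15 without P6 GFP- replicate 1 (7 had an unadjusted p below 0.05) and 1, *Apcdd1*, without P6 GFP- replicate 2. For a change of the ratio between the ages edgeR called none of the 15, with 9 at an unadjusted p below 0.05 and 6 called by DESeq2. It called 6 without P6 GFP+ replicate 1 and 5 without P6 GFP+ replicate 2.

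The genes most like 3 of the members were found by the Pearson correlation of log2(CPM + 0.5) over the 8 libraries, among 12566 genes with a mean of at least 5 CPM. The libraries form 4 groups of 2 and share their depth and cell make-up across genes, so these values describe a shared profile and carry no p. For *Lgr5* they included *Pvrl3* (r = 0.997) and *Fgf3* (r = 0.996). *Pvrl3* was at 433 and 393 CPM in P1 GFP+ cells, at 354 and 305 CPM in P6 GFP+ cells and at 44.0 to 61.4 CPM in the GFP- libraries. For *Lgr6* they included *Cast* (r = 0.984), the gene of the calpain inhibitor calpastatin, and the matrix protease gene *Mmp28* (r = 0.963). *Mmp28* was at 3.40 and 3.94 CPM in P1 GFP+ cells, at 42.8 and 43.3 CPM in P6 GFP+ cells and at 8.51 to 10.3 CPM in the GFP- libraries. For *Axin2* they were the DNA repair gene *Xrcc2* (r = 0.998), *4930594M22Rik* (r = 0.994) and *Clcc1* (r = 0.993).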

How the data were processed

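Paired-end RNA-seq libraries of sorted cochlear cells were prepared by the authors with an mRNA kit that does not mark strand, aligned to mm9 with TopHat (1.4.0 in the submitters' processing notes) and counted per Ensembl gene with HTSeq. The deposited values are raw counts, with no normalization. The mode of counting is not given in the sources used here. Of all listed counts 64.7% to 76.2% fell on genes, and those on no gene (13.8% to 25.6%), on more than 1 gene (2.05% to 2.53%) or aligned at several places (7.41% to 9.60%) were left out. Deeper libraries give more precise values, and genes with few counts, such as the R-spondins, are known with the least precision.

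Symbols and places were looked up in the NCBIM37 annotation, where 34391 of the 36536 genes were found. Groups were taken from the sample titles. Each comparison was fitted on its 4 libraries, and the interaction on all 8, in R 4.3.3 with edgeR 4.0.16 (filterByExpr with a minimum count of 10 and a minimum total of 15, TMM, quasi-likelihood test, Benjamini-Hochberg adjustment over all genes tested). The SE was taken from the log2 fold change and the F statistic of its test. Exon lengths are those of merged exons. The steps were tested on simulated counts.

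The text names all 10 members, up to 3 genes of each further list in a comparison (those past the test with the largest change), and the 3 genes most like *Lgr5*, *Lgr6* and *Axin2*, of which some are not reported here. The members and lists were chosen with earlier results of these data known. Alternatives were DESeq2 1.42.0 or its size factors, library totals, no filter, a fit of all 8 libraries, the replicate number as a block, thinning to 17769024 counts and leaving out each library. A crossed replicate block, and leaving out each library for the further gene lists, were added after seeing the data. Replicate libraries differed by more than sampling noise (chi-square per degree of freedom 15.1 to 58.0).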

Additional observations from a re-analysis of the deposited data

Results flagged for a closer look

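*Lgr6* and *Rnf43* stood out because their GFP+ to GFP- ratio lay on opposite sides at the 2 ages. For *Lgr6* the log2 ratio was 3.10 higher at P6 than at P1 (SE 0.31, edgeR adjusted p = 0.00195), with non-overlapping fractions in opposite order. This call was lost without either P1 GFP+ library (adjusted p = 0.0192 and 0.0181) or either P6 GFP- library (0.0222 and 0.0244). For *Rnf43* the log2 ratio was 1.08 higher at P6 than at P1 (SE 0.18), which was not past the test (adjusted p = 0.0125). Over its alternatives the adjusted p of *Rnf43* ranged from 4.34e-05 to 0.0895, with 5 of 14 below 0.01. With 2 libraries in a group, no test for a single library that lies apart was made.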

How the results depend on the processing

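Of 539 values of the 9 genes under the alternatives, 455 kept their direction and their side of the threshold, 45 came to be past the test, 31 lost their call and 8 changed sign, and for these changes the cause was not tested. With no filter on low counts, 7 members were past the test at P6 (4 with the filter), 2 with age in GFP+ cells (1), 5 with age in GFP- cells (3) and 5 in the interaction (1). The interaction count was also 4 with DESeq2 and 2 after thinning, and the GFP- age count was 1 with all 8 libraries in the fit. Leaving out 1 library gave 3 to 8 members between the fractions at P1, 0 to 8 at P6, 1 to 6 with age in GFP+ cells, 0 to 5 with age in GFP- cells and 0 to 4 in the interaction. When 1 library was left out, signs changed for *Rspo3* with age in GFP+ cells (-0.59 without P6 GFP+ replicate 2, 2.12 without replicate 1), *Axin2* with age in GFP+ cells (0.02 without P6 GFP+ replicate 1, -0.35 without replicate 2), *Rspo1* with age in GFP- cells (0.10 and 0.14 without replicate 1 of P1 or P6 GFP-, -0.42 without P6 GFP- replicate 2) and *Znrf3* with age in GFP- cells (0.06 without P1 GFP- replicate 1, -0.34 without replicate 2). In the interaction they changed for *Rspo3* (0.28 and 0.44 without replicate 1 of P1 or P6 GFP+, -2.29 without P6 GFP+ replicate 2) and *Znrf3* (0.08 without P1 GFP- replicate 2, -0.36 without replicate 1), and none of the values of changed sign was past the test. Over all genes, the count at P6 was 2363, and 4891 with DESeq2, 5309 without the filter and 5157 with all 8 libraries. With age it was 828 in GFP+ cells (3037, 4090 and 2361 in the same order) and 1397 in GFP- cells (3050, 3993 and 769), and in the interaction 372 (1439 with DESeq2, 2400 without the filter). Leaving out 1 library gave 3675 to 9798 of all genes at P1, 0 to 7765 at P6, 137 to 7531 and 249 to 3029 with age in GFP+ and GFP- cells, and 28 to 1407 in the interaction. Scaling by library totals moved the median of all genes by -0.10 at P1, by -0.19 with age in GFP- cells and by 0.12 in the interaction, and *Lgr4* with age in GFP- cells (adjusted p = 0.0119) and *Axin2* at P6 lost their calls. This scaling also moved the split of higher and lower genes from 1413 and 950 to 1282 and 514 at P6, from 954 and 443 to 564 and 575 with age in GFP- cells, and from 182 and 190 to 192 and 127 in the interaction.

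Samples that shared a replicate number did not deviate together in all pairs of groups (correlations across genes of 0.0546 and 0.0603 between the fractions of P1 and P6, -0.188 and -0.339 between the ages in GFP+ and GFP- cells, 0.146 between P1 GFP+ and P6 GFP- cells, and -0.139 between P1 GFP- and P6 GFP+ cells), so the numbers were not taken to pair the samples. With the replicate block, 7, 4, 1, 2 and 1 members were past the test between the fractions at P1 and P6, with age in GFP+ and GFP- cells and in the interaction, where 151 of all genes were. *Rnf43* with age in GFP- cells was not past the test with the block (adjusted p = 0.0171). A crossed block, chosen after seeing the data, gave 1 and 4 members with age in GFP+ and GFP- cells (1254 and 3063 of all genes). Depth limits *Rspo1* and *Rspo4* most, with 8 counts or fewer in some libraries.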
